A study of Mus musculus with 17 samples.

Results

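Kidneys of db/db mice that had received dapagliflozin were compared with kidneys of wild-type mice across all genes, to describe what still differed from wild type under treatment. The comparison held 11 of the 17 mice of the series, 6 of the treated group (Dapa, mice 7 to 12) and 5 of the wild-type group (Ctrl, mice 1 to 5), chosen by their group labels alone, and 14647 of the 22558 genes used had enough counts to be tested. The untreated db/db group (Case) was left out of this comparison, and its values are given only beside some genes at the end. All mice were males of 8 weeks at the start and were kept for 6 weeks. The Ctrl mice were C57BL/6 mice given saline. The Dapa mice were of the BKS.Cg-Dock7m +/+ Leprdb/J strain, homozygous for the db mutation of the leptin receptor, and were given dapagliflozin at 1 mg/kg per day by gavage. The groups therefore differed in strain background, genotype, diabetes and drug at once, and these cannot be told apart here.

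Dapagliflozin blocks SGLT2 (Slc5a2), the carrier that takes most of the filtered glucose back into the cells of the early proximal tubule, so that glucose leaves with the urine. The db mutation ends leptin receptor signalling, and db/db mice become obese and hyperglycaemic and are widely used as a model of type 2 diabetes with kidney disease. The kidney cortex is mostly proximal tubule, which reclaims filtered solutes and protein, secretes organic anions and cations, burns fatty acids and activates vitamin D, whereas the distal nephron and collecting duct set the final salt, calcium, urea and water content of the urine. In whole-kidney RNA, fewer cells of a type and less RNA per cell cannot be told apart.

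The Ctrl libraries held 15757676 to 16902608 counts and the Dapa libraries 13039535 to 16094410, so the ranges overlapped. The mean was lower in Dapa (exact two-sided permutation test, p = 0.00866). Mitochondrial genes took 19.35% ± 1.022 (SD, n = 5) of the counts in Ctrl and 23.5% ± 3.321 (SD, n = 6) in Dapa (exact permutation p = 0.0303), with the highest shares in Dapa 9, 10 and 12. That difference lost its p under 0.05 when any of Ctrl 2, 3 or 5 or Dapa 9, 10, 11 or 12 was left out (differences of 3.32 to 4.9 percentage points over the 11 mice left out in turn). The fitted differences are relative to the scaled library total. A fit without the mitochondrial genes called 2192 genes higher and 2081 lower, and kept 4151 of the 4258 calls of the full fit that it tested. Counts without these 3 mice are given below. In Ctrl 1, 3 and 4 and Dapa 10, 11 and 12, the deposited FPKM and counts of 3 genes did not match, and the comparison was therefore also made within these 6 libraries and within the other 5. The ratio of count to FPKM of the 3 genes, relative to other genes, was 0.970 of the median library in Ctrl 4. It was 1.047 to 1.273 of it in the rest of the 6. In Ctrl 2, counted with the other 5, it was 1.00126. The pseudogene H2-Ea-ps, whose promoter is known to be deleted in C57BL/6 mice, had an FPKM of 22.2, 47.1, 16.5, 22.5 and 38.4 in the libraries labelled C57BL/6 and 20.8 to 90 (median 28.4) in the Dapa mice, so it was counted in both groups. These values put the strain label, or the assignment of reads to this gene, in doubt for the Ctrl libraries, and which of them was not tested. The gene was singled out after its values were seen.

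Relative to wild type, the treated db/db kidney had lower RNA of many proximal tubule genes (secretory carriers, the endocytic receptor megalin, androgen-responsive genes, ketone body enzymes) and higher RNA of many collecting duct, injury, immediate early and red cell genes and of the vitamin D enzyme gene Cyp27b1. The gene lists share members, so their counts are not independent. Slco1a1 is on the carrier and androgen-responsive lists, and Acsm3 on the androgen-responsive and ketone body lists. In the quasi-likelihood test of edgeR (p adjusted by Benjamini-Hochberg and written as q), 2073 genes were higher and 2187 lower in Dapa at a q under 0.05, that is 14.2% and 14.9% of all genes tested. Of these, 740 higher genes (5.05%) and 311 lower genes (2.12%) were differentially expressed genes (DEGs), whose mean FPKM also differed more than 2-fold. With the fold taken from edgeR in place of mean FPKM, which holds no TMM factor, 602 DEGs were higher and 365 lower. With the fold between group medians of FPKM, 722 were higher and 350 lower. DEGs are below those by mean FPKM. The median log2 fold change (Dapa over Ctrl) was 0.0152 over all genes, 1.25 over the higher DEGs and -1.55 over the lower DEGs. The FPKM values of the groups did not overlap in the higher direction for 9.79% of the genes tested and in the lower direction for 4.74%, and 392 higher and 194 lower DEGs were among them. The lower DEGs were the more abundant. Where the group with more RNA had a mean FPKM of 10 or above, there were 120 lower and 92 higher DEGs, while 275 of the 345 DEGs with means under 1 in both groups were higher. The split into higher and lower genes changed with the scaling and the measure. Upper quartile scaling in place of TMM gave 2461 higher and 1828 lower genes, and median ratio scaling 2135 and 2133. Limma on log2(FPKM + 1), which differs in test, measure and scaling, gave 2918 and 1488, and on log2(FPKM + 0.1) the median of all genes stood at 0.109. Without Dapa 9, 10 and 12, 919 genes were higher and 938 lower. Within the 6 libraries with unmatched FPKM, 1425 were higher and 1616 lower, and within the other 5 libraries, 95 and 178. Of 43 lists with a called gene, 18 had none within those 5. A single value in parentheses after a gene name is, from here on, the log2 fold change of a gene that passed the test, and a median is that of the log2 fold changes of the tested genes of a list. Counts per list are to be read against the 14.2% higher and 14.9% lower over all genes.

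**Figure D1:**
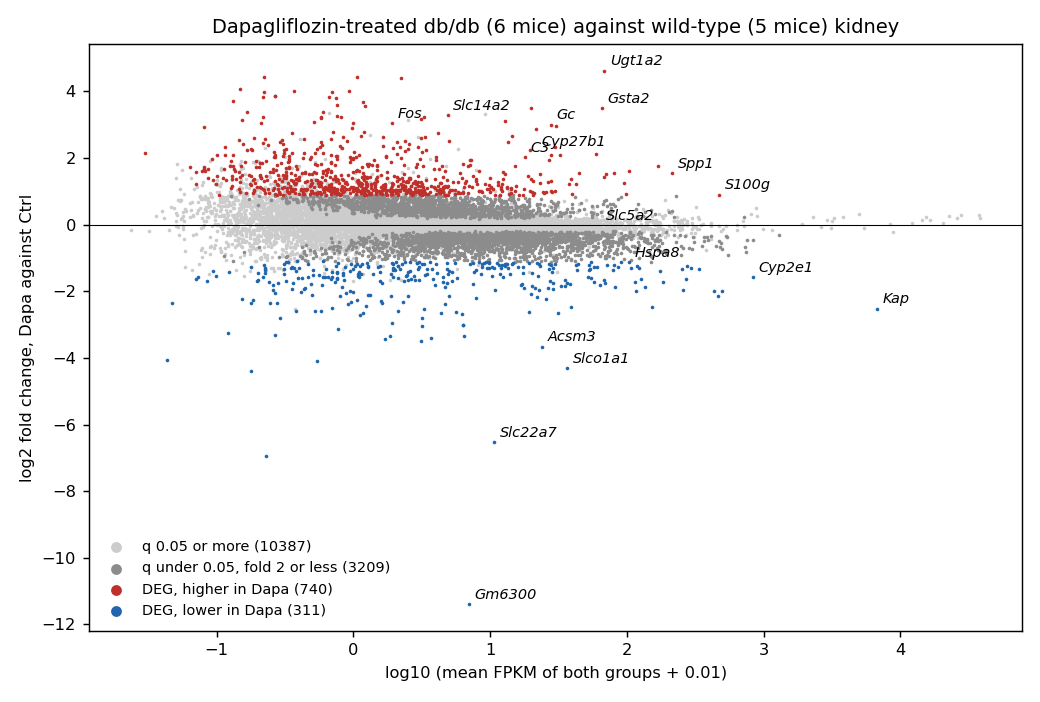
Each point is 1 of the 14647 genes tested, with the log10 of the mean FPKM of both groups plus 0.01 on the x axis and the log2 fold change of Dapa against Ctrl on the y axis; red and blue points are the 740 higher and 311 lower DEGs. Kap is the most abundant DEG and lies below 0, and Gm6300, which had no count in any Dapa mouse, lies lowest.

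The drug target and the mutated gene were examined first. Slc5a2 had an FPKM of 60.7, 72.8, 59, 58.6 and 59.3 in Ctrl 1 to Ctrl 5 and 48 to 85.3 (median 65.5) in the Dapa mice. The ranges overlapped and no difference was detected (log2 fold change -0.03 ± 0.14, q = 0.892). Lepr, the leptin receptor, had an FPKM of 0.464, 0.681, 0.813, 1.93 and 1.15 in the Ctrl mice and 0.417 to 4.85 (median 2.5) in the Dapa mice, and the difference did not pass the test (log2 fold change 1.28 ± 0.51, q = 0.0737). It passed within the 6 libraries with unmatched FPKM (log2 fold change 1.83, q = 0.0196), and within the other 5 the value was 0.29 (q = 0.807). The db mutation alters the splicing of the long receptor form, so a count over the whole gene does not check the genotype. Of 26 tested genes of leptin, insulin and IGF signalling, 2 were higher and 4 lower, a share near that of all genes (median 0.0813). Socs3, a feedback inhibitor of cytokine and leptin receptors, was higher (0.86 on the log2 scale), and Ghr, the growth hormone receptor, was lower (-0.88).

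The 10 lowest DEGs without overlap of the groups included 3 carriers. Slc22a7, the organic anion transporter OAT2 on chr17:46432185-46438477 of mm10, had an FPKM of 13, 30.9, 21.9, 12.4 and 28.1 in the Ctrl mice and 0 to 0.526 (median 0.225) in the Dapa mice (log2 fold change -6.53 ± 0.43, q = 1.28e-05). No Dapa library reached more than 17 counts of it, against at least 419 in each Ctrl library. Slco1a1, an organic anion transporter of the apical membrane on chr6:141907282-141946962 of mm10, had an FPKM of 103, 65, 70.3, 26.3 and 81.8 in Ctrl and 0.771 to 13.1 (median 1.37) in Dapa (log2 fold change -4.32 ± 0.74, q = 0.00145), and Dapa 7 held the highest Dapa value. Slc22a26, a carrier of the same family as Slc22a7, ranged from 2.32 to 4.65 in Ctrl and from 0.0357 to 0.785 in Dapa (log2 fold change -3.34 ± 0.46, q = 0.00054). Gm6300, a gene model on chr3:14363117-14377587 of mm10, had 91 to 565 counts in the Ctrl libraries and none in the 6 Dapa libraries, at least 101-fold lower at a floor of 3 counts per Dapa library. The chemokine gene Ccl28 (log2 fold change -3.48 ± 0.36, q = 0.000139), the endocrine angiogenic factor Prok1 (log2 fold change -3.43 ± 0.35, q = 0.000139) and the tryptophan-degrading enzyme Ido2 (log2 fold change -3.13 ± 0.5, q = 0.0011) were also among these 10, each with every Dapa mouse below every Ctrl mouse, as were Acsm3, described below, Gm4208 (-3.41) and Ctxn3 (-3.05).

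Of 37 tested organic anion and cation transporters, 22 were lower and 6 higher, with a median log2 fold change of -0.69 (19 lower and 3 higher without Dapa 9, 10 and 12). Slc22a12, the urate carrier URAT1, had an FPKM of 415, 356, 427, 312 and 391 in Ctrl and 102 to 294 (median 159) in Dapa, with no overlap (log2 fold change -1.25 ± 0.21, q = 0.00138). Slc22a6, the basolateral anion exchanger OAT1, had an FPKM of 248, 243, 237, 194 and 222 in Ctrl and 93.1 to 187 (median 145) in Dapa (log2 fold change -0.78 ± 0.16, q = 0.00351). Every treated mouse lay below every wild-type mouse for both carriers. Slc22a2 (the cation transporter OCT2, -1.37), Slc22a5 (the carnitine transporter OCTN2, -0.82), Slc47a1 (the extruder MATE1, -0.69) and Abcg2 (-0.66) were lower as well. The higher members included the efflux pumps Abcc3 (1.45), Abcc4 (1.10) and Abcc1 (1.09).

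The list of androgen-responsive kidney genes held 19 lower and 1 higher among 26 tested genes and the lowest median of all lists with at least 8 tested genes (-1.23). The summed FPKM of the list, which Kap makes up in large part, was 10449 to 19045 in the Ctrl mice and 2040.4 to 6898 in the Dapa mice. Kap, the kidney androgen-regulated protein of the proximal tubule, on chr6:133849851-133853762 of mm10, was the most abundant DEG. Its FPKM was 14848, 12841, 8962, 7702 and 12137 in Ctrl 1 to Ctrl 5 and 906 to 4540.1 (median 1631) in Dapa, with the highest treated value in Dapa 7 (log2 fold change -2.53 ± 0.37, q = 0.000689). Acsm3, a medium-chain acyl-CoA synthetase, fell from 60, 46.9, 49.1, 18.2 and 47.8 in Ctrl to 2.06 to 7.1 (median 3.09) in Dapa (log2 fold change -3.66 ± 0.36, q = 0.000125). The steroid hydroxylase Cyp7b1 (-2.61), the fatty acid hydroxylase Cyp4a12a (-1.80) and ornithine decarboxylase (Odc1, -1.62) were lower, and the prolactin receptor Prlr (1.15) was the higher member. Cyp4a12a shares 48.9% of its 50-base stretches with other transcripts, mainly those of Cyp4a12b, which was not called (-0.395, q = 0.157). Without Dapa 9, 10 and 12 the counts were 15 lower and 2 higher. Dapa 7 had the highest treated value of Kap, Acsm3, Slco1a1 and Cyp4b1.

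Among the 10 most abundant DEGs, 9 were lower and 1 was higher in Dapa. Cyp2e1, a P450 that oxidises ethanol, acetone and small solvents, had an FPKM of 1099, 1422, 1238, 1013 and 1367 in Ctrl and 238 to 751 (median 466) in Dapa (log2 fold change -1.57 ± 0.25, q = 0.00101). Cyp4b1, a fatty acid hydroxylase, had an FPKM of 759, 817, 714, 503 and 945 in Ctrl and 83.3 to 319 (median 189) in Dapa (log2 fold change -2.14 ± 0.28, q = 0.00042). Ugt2b38, a glucuronosyltransferase, had an FPKM of 946, 918, 851, 501 and 701 in Ctrl and 149 to 261 (median 230.1) in Dapa (log2 fold change -1.99 ± 0.2, q = 0.000125). For all 3 genes the highest treated mouse was below the lowest wild-type mouse. Acy3, which removes acetyl groups from mercapturic acids, Sepp1, the selenium carrier selenoprotein P, and Inmt, an amine methyltransferase, had log2 fold changes of -2.0 ± 0.22 (q = 0.000181), -1.33 ± 0.17 (q = 0.000341) and -1.3 ± 0.22 (q = 0.00132). S100g, the calcium-binding calbindin-D9k, was the higher member, with an FPKM of 322, 388, 263, 346 and 257 in Ctrl and 536 to 927 (median 583) in Dapa (log2 fold change 0.9 ± 0.16, q = 0.00215). Its fold was above 2 between means of FPKM but not in the edgeR fit.

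**Figure D2:**
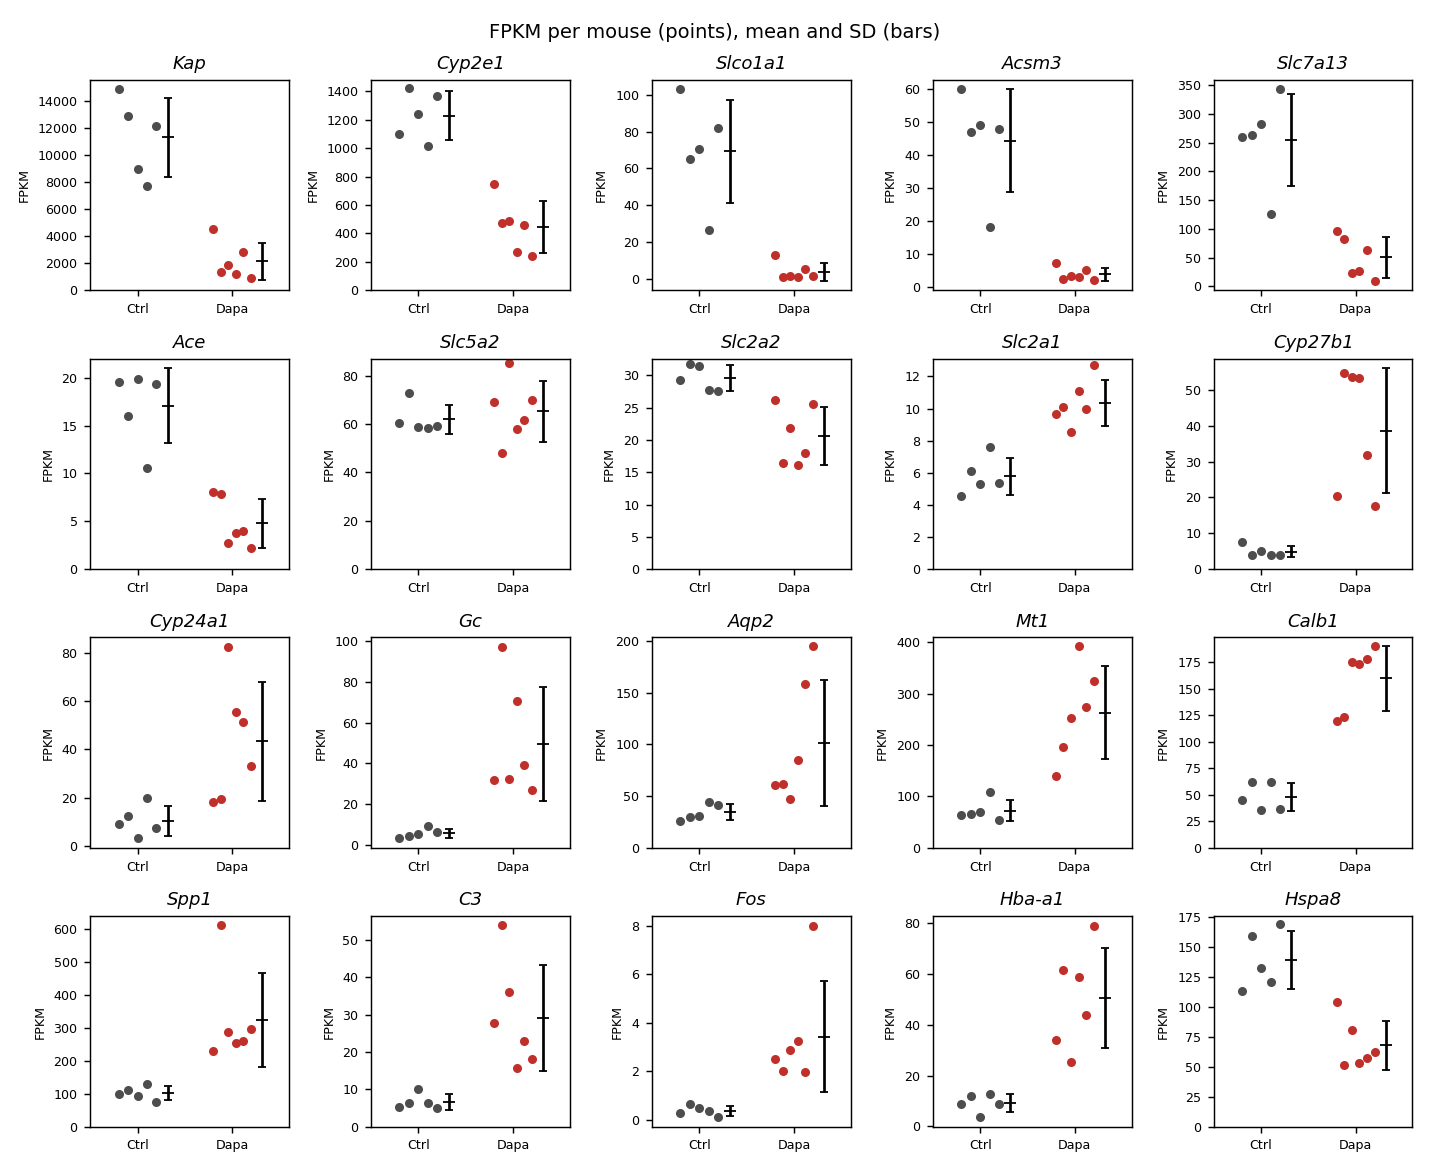
FPKM of 20 genes in each Ctrl (grey) and Dapa (red) mouse, 1 point per mouse, with the mean and SD of each group as bars on linear axes. Kap, Cyp2e1, Slco1a1, Acsm3, Slc7a13, Ace and Hspa8 are lower in every Dapa mouse than in any Ctrl mouse, Slc5a2 overlaps fully, and Spp1 stands apart in 1 Dapa mouse.

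Markers of the proximal tubule were lower as a group, with 11 of 14 lower, none higher and a median of -0.63 (8 lower without Dapa 9, 10 and 12). Their summed FPKM was 3431 to 4220.3 in Ctrl and 2263 to 3057 in Dapa. The size of the change differed between markers. Slc7a13, an aspartate and cystine carrier of the late proximal tubule, had an FPKM of 259.5, 263, 282, 125 and 343 in Ctrl and 9.63 to 96.9 (median 45) in Dapa (log2 fold change -2.46 ± 0.49, q = 0.00316). Keg1, a glycine acyltransferase-like gene, had an FPKM of 185, 204, 213, 126 and 195 in Ctrl and 35.7 to 64.8 (median 51) in Dapa (log2 fold change -2.0 ± 0.17, q = 5.87e-05). Slc34a1, the phosphate carrier NaPi-IIa of the early tubule, had an FPKM of 1345, 1476, 1424, 1324 and 1371 in Ctrl and 1047 to 1354 (median 1189) in Dapa. Its ranges overlapped and its change was small (log2 fold change -0.31 ± 0.1, q = 0.0367). That call was lost without Ctrl 1, 2, 3 or 5 or without Dapa 7, 10, 11 or 12, with a q of up to 0.106 when 1 mouse was left out. Hnf4a, the transcription factor of the proximal tubule programme, was lower (-0.57), and Slc5a2, also a proximal tubule marker, was among the 3 that did not pass.

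Genes of proximal tubule endocytosis and vitamin handling differed in both directions, with 10 of 22 tested genes lower and 9 higher (median -0.396; 6 and 6 without Dapa 9, 10 and 12). Lrp2, which encodes megalin, the receptor for filtered proteins, had an FPKM of 156, 143, 197, 137 and 184 in Ctrl and 55.5 to 106 (median 65.6) in Dapa, with no overlap (log2 fold change -1.25 ± 0.18, q = 0.000557). Its partner cubilin (Cubn) had an FPKM of 33.7, 28.9, 43.5, 33 and 38.8 in Ctrl and 17.5 to 37.2 (median 20.9) in Dapa, with overlap (log2 fold change -0.7 ± 0.18, q = 0.0137). Without Dapa 9, 10 and 12 Cubn did not pass (log2 fold change -0.44, q = 0.154). Amnionless (Amn, -0.66), which anchors cubilin, the chloride-proton exchanger Clcn5 (-0.45), Klotho (Kl, -0.48) and the parathyroid hormone receptor Pth1r (-0.74) were lower too, while the adaptor Dab2 did not pass (-0.40, q = 0.152). Cyp27b1, the enzyme that makes active vitamin D, on chr10:127048250-127053006 of mm10, had an FPKM of 7.54, 3.99, 5.02, 3.98 and 4.04 in Ctrl and 17.6 to 54.8 (median 42.8) in Dapa (log2 fold change 2.86 ± 0.35, q = 0.000289). Cyp24a1, which degrades active vitamin D, had an FPKM of 9.33, 12.5, 3.31, 20 and 7.77 in Ctrl and 18.5 to 82.3 (median 42.2) in Dapa (log2 fold change 1.95 ± 0.46, q = 0.00809). The groups did not overlap for Cyp27b1 and overlapped for Cyp24a1, which had a log2 fold change of 1.38 and a q of 0.0799 without Dapa 9, 10 and 12. Gc, the vitamin D-binding protein of plasma, had an FPKM of 3.34, 4.65, 5.33, 9.38 and 6.23 in Ctrl and 26.8 to 97 (median 35.7) in Dapa, with no overlap (log2 fold change 3.0 ± 0.37, q = 0.000303). The vitamin D receptor itself (Vdr) was lower (-0.40). Downstream in the distal tubule, calbindin-D28k (Calb1) had an FPKM of 45.2, 61.8, 35.8, 62.2 and 36.4 in Ctrl and 119 to 190.3 (median 174) in Dapa (log2 fold change 1.62 ± 0.19, q = 0.000205), and the calcium channels Trpv5 (0.67) and Trpv6 (0.71) were higher.

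Collecting duct markers were mostly higher. Of 12 collecting duct markers 8 were higher and none lower (median 0.547), with a summed FPKM of 184 to 239 in Ctrl and 280.2 to 477 in Dapa. Of 44 sodium, potassium and water transport genes 21 were higher and 5 lower (median 0.397). Without Dapa 9, 10 and 12 these counts were 4 and 0, and 14 and 1. Aqp2, the water channel regulated by vasopressin, had an FPKM of 26.3, 29.6, 31.2, 44.3 and 41.7 in Ctrl and 47.1 to 195 (median 73.6) in Dapa, with no overlap (log2 fold change 1.44 ± 0.34, q = 0.00754). Slc14a2, which encodes the urea transporters UT-A, had an FPKM of 0, 2.2, 0.0706, 1.58 and 0.357 in Ctrl and 0.38 to 22 (median 6.88) in Dapa (log2 fold change 3.28 ± 0.95, q = 0.0213). The ranges overlapped and the call was lost without Ctrl 5 (q = 0.052). Slc6a12, the betaine carrier BGT1 of the osmotic response, had an FPKM of 0.014, 0.221, 0, 0.228 and 0.0144 in Ctrl and 0.102 to 3.43 (median 1.55) in Dapa (log2 fold change 4.03 ± 0.94, q = 0.00761). For Slc14a2, Slc6a12 and Aqp2, Dapa 9 had the lowest treated value and the highest lay in Dapa 11 or 12. Within the 6 libraries with unmatched FPKM their log2 fold changes were 4.59, 5.06 and 1.98, and within the other 5 they were 1.31 (q = 0.533), 1.81 (q = 0.38) and 0.59 (q = 0.144). Of the collecting duct markers 8 were higher in the former libraries and none in the latter (median 0.371). The sodium channel subunits Scnn1a (1.29), Scnn1b (0.68) and Scnn1g (0.55) and the mineralocorticoid receptor Nr3c2 (0.60) were higher, and the proximal sodium-proton exchanger Slc9a3 was lower (-0.51). Slc12a3, the thiazide-sensitive carrier, was higher (log2 fold change 0.4 ± 0.1, q = 0.0104). It did not pass within the libraries with unmatched FPKM (0.25, q = 0.222) or within the others (0.58, q = 0.08). Nor did it without Dapa 9, 10 and 12 (0.35, q = 0.0776). Umod, the uromodulin gene of the thick ascending limb, had an FPKM of 317, 671, 554, 1167 and 777 in Ctrl and 785 to 1342 (median 1061) in Dapa and did not pass (log2 fold change 0.51 ± 0.25, q = 0.136).

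**Figure D3:**
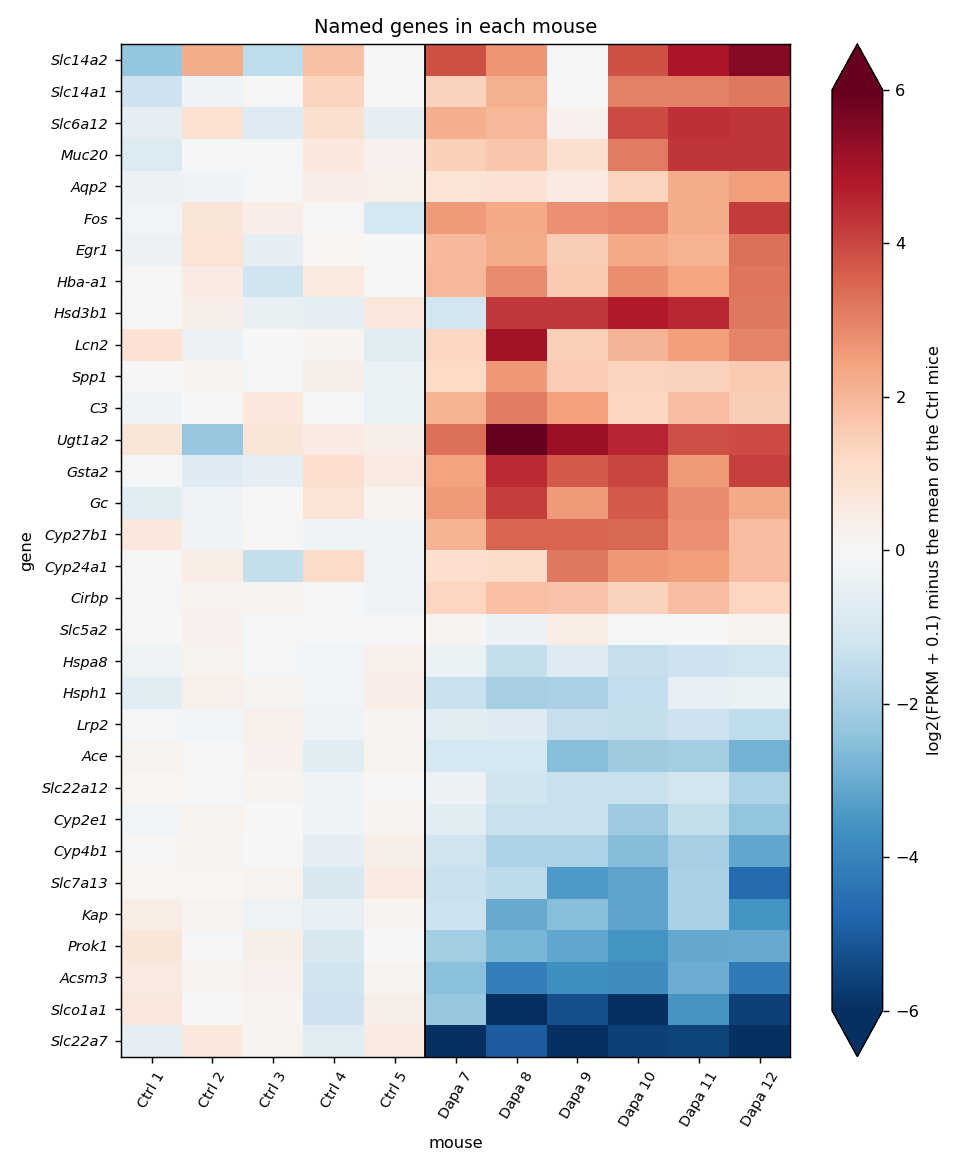
Log2(FPKM + 0.1) of named genes in each mouse, minus the mean of the Ctrl mice; rows are genes, columns the 5 Ctrl and 6 Dapa mice, and the colour scale ends at -6 and 6. Slc14a2, Slc14a1, Slc6a12 and Aqp2 are highest in Dapa 11 or Dapa 12 and lowest among treated mice in Dapa 9, and Kap, Slco1a1 and Acsm3 are least reduced in Dapa 7.

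The list of glucose transporters and their family, which includes Slc5a2, held 3 higher and 5 lower among 18 tested genes (median 0.0429). Of the 5 lower members, Slc5a8 and Slc5a12 carry monocarboxylates and Slc5a11 carries inositol. Slc2a2, which encodes the basolateral carrier GLUT2 that works behind SGLT2, had an FPKM of 29.2, 31.8, 31.4, 27.7 and 27.5 in Ctrl and 16.1 to 26.1 (median 19.8) in Dapa (log2 fold change -0.62 ± 0.14, q = 0.00577). Slc5a1, which encodes SGLT1 of the late tubule, had an FPKM of 18.5, 21.9, 19.2, 19 and 18.4 in Ctrl and 13 to 18.4 (median 15.1) in Dapa (log2 fold change -0.41 ± 0.1, q = 0.00947). Slc2a1, which encodes GLUT1, had an FPKM of 4.54, 6.12, 5.31, 7.59 and 5.37 in Ctrl and 8.54 to 12.7 (median 10) in Dapa (log2 fold change 0.74 ± 0.12, q = 0.00132). The treated mice were all below the wild-type mice for Slc2a2 and all above them for Slc2a1, and the ranges of Slc5a1 met. Of 43 genes of glycolysis, gluconeogenesis and fructose metabolism, 9 were higher and 6 lower (median 0.133). Pkm, the pyruvate kinase gene of most tissues outside the liver, had an FPKM of 40, 56.7, 50.8, 74 and 48.5 in Ctrl and 92 to 195 (median 128) in Dapa (log2 fold change 1.25 ± 0.19, q = 0.000888), and 25.8% of its 50-base stretches also occur in other transcripts. Hexokinase 1 (Hk1, 1.06) and the aldolase Aldoc (1.53) were higher, and pyruvate carboxylase (Pcx, -0.55) and glycogen synthase 2 (Gys2, -0.96) lower. Of 23 hypoxia response genes, 7 were higher and 2 lower (median 0.0575), with Pdk1 (1.15), which restrains pyruvate oxidation, among the higher and Vegfa (-0.24) among the lower.

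Of 45 tested genes of fatty acid oxidation and PPAR alpha targets, 20 were lower and 4 higher, with a median of -0.323. Of the 20, 2 were DEGs, and without Dapa 9, 10 and 12 the list held 3 lower and 1 higher, and 11 lower and 5 higher on log2(FPKM + 1). Within the 6 libraries with unmatched FPKM it held 24 lower and 3 higher (median -0.547), and within the other 5 none passed in either direction (median -0.0983). Cd36, the fatty acid translocase, had an FPKM of 53.6, 43.8, 53.9, 24.7 and 40.8 in Ctrl and 7.2 to 23.4 (median 12.5) in Dapa, with no overlap (log2 fold change -1.75 ± 0.3, q = 0.00157). Acadm (-0.42), Ehhadh (-0.77) and Cpt2 (-0.62), enzymes of mitochondrial and peroxisomal oxidation, were lower by less than 2-fold, and the uncoupling protein gene Ucp2 (0.67) was higher. Of 18 ketone body and butanoate genes, 14 were lower and 1 higher (median -0.59; 11 and 1 without Dapa 9, 10 and 12). Aacs, which activates acetoacetate for lipid synthesis, had an FPKM of 30.1, 42.7, 38.6, 24.2 and 43 in Ctrl and 7.39 to 12.2 (median 7.84) in Dapa (log2 fold change -2.16 ± 0.17, q = 4.36e-05). Bdh1, which interconverts the ketone bodies, had an FPKM of 18.7, 15.9, 17.3, 14.5 and 17.2 in Ctrl and 4.48 to 11.6 (median 7.98) in Dapa (log2 fold change -1.21 ± 0.2, q = 0.00132). Neither gene overlapped between groups, and Oxct1, needed to use ketone bodies for energy, was lower as well (-0.63). The higher member was the monocarboxylate carrier Slc16a7 (1.27). Of 57 respiratory chain subunits, 1 was higher and 5 lower (median 0.0146), fewer than the shares over all genes. Of 43 genes of fatty acid and cholesterol synthesis, 11 were lower and 9 higher (median -0.0405). Cyp51, the lanosterol demethylase, had an FPKM of 79.6, 45.1, 61, 35.5 and 45.6 in Ctrl and 5.58 to 12.6 (median 9.53) in Dapa (log2 fold change -2.64 ± 0.24, q = 8.68e-05). Hmgcs1 (-1.27) and Idi1 (-1.19) of the same pathway were lower, while Insig1 (0.91), Fdps (0.69) and Fdft1 (0.61) were higher.

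**Figure D4:**
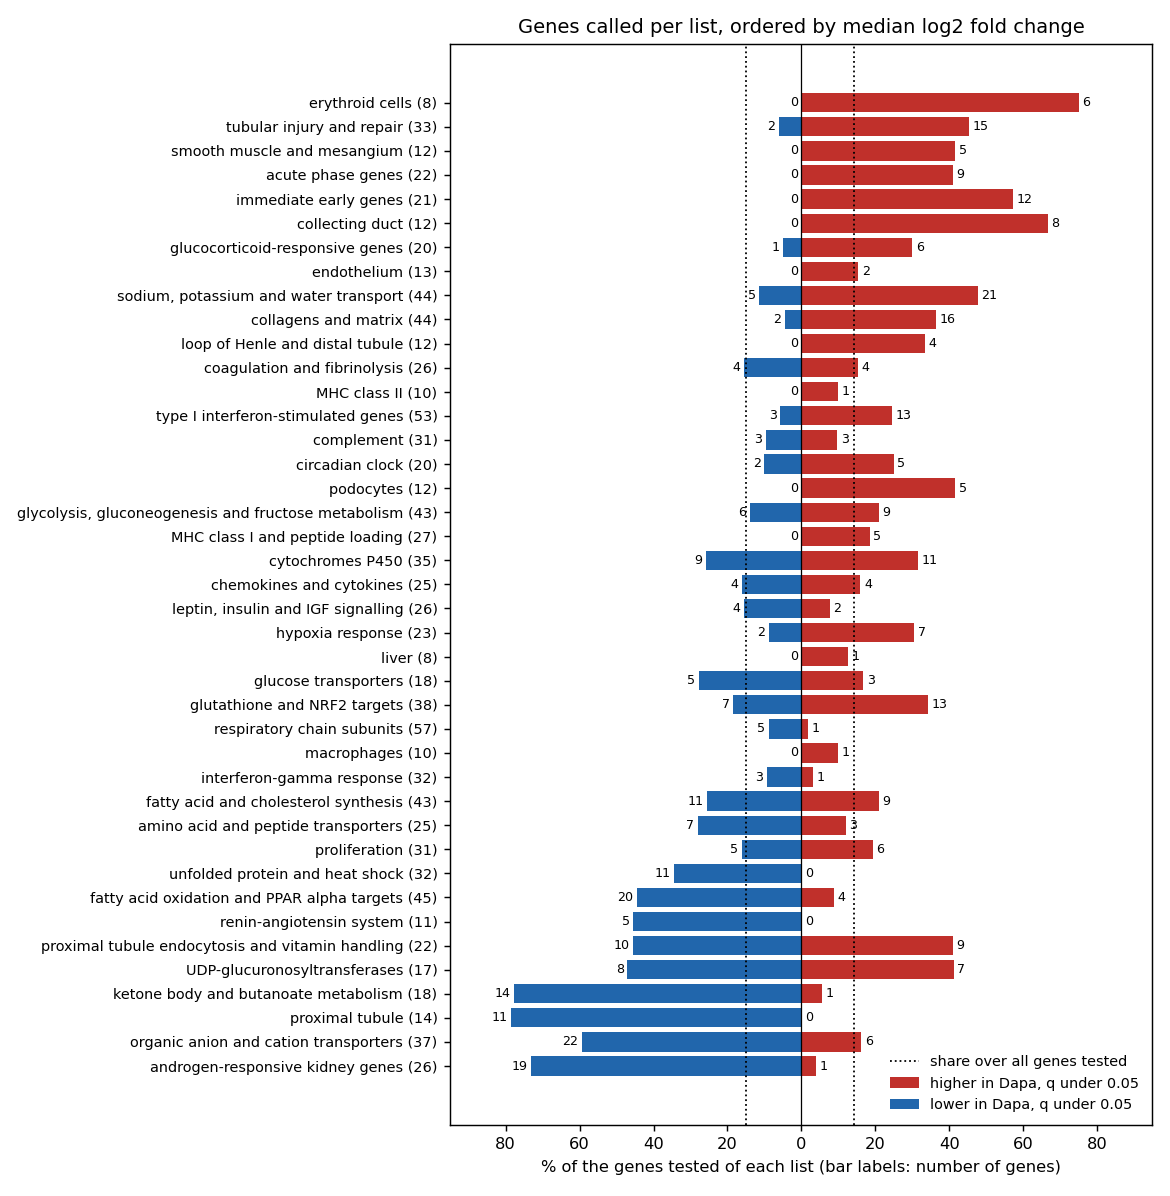
Share of the tested genes of each list that were higher (red, to the right) or lower (blue, to the left) in Dapa at a q under 0.05, in %, for lists with at least 8 tested genes, ordered by median log2 fold change; dotted lines mark the shares over all genes tested, 14.2% higher and 14.9% lower. Erythroid, injury, and smooth muscle and mesangium lists lie at the top, and proximal tubule, transporter and androgen-responsive lists at the bottom.

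Genes that conjugate drugs and steroids split into opposite groups. Of 17 UDP-glucuronosyltransferases, 7 were higher and 8 lower. The higher genes included Ugt1a2, with an FPKM of 6.66, 0.744, 6.6, 5.65 and 5.17 in Ctrl and 40.1 to 391 (median 80.1) in Dapa (log2 fold change 4.62 ± 0.69, q = 0.00071), and Ugt1a5 (log2 fold change 3.5 ± 0.67, q = 0.00265). Dapa 8 held the highest Ugt1a2 value. The Ugt1a genes share their last exons, and 63.7% and 64% of the 50-base stretches of these 2 genes occur in transcripts of others, so how counts were divided among them is uncertain. The lower genes were led by Ugt2b38 and Ugt2b37 (-1.73), of which Ugt2b38 shares 37.4%. Of 38 glutathione and NRF2 target genes, 13 were higher and 7 lower (median 0.0299). Gsta2, a glutathione transferase, had an FPKM of 8.41, 5.19, 6.12, 18.1 and 12.6 in Ctrl and 48.9 to 201 (median 133) in Dapa, with no overlap (log2 fold change 3.5 ± 0.44, q = 0.000318), and 49.8% of its stretches are shared, mainly among its family. Ephx1 (1.27), Gstm2 (1.18) and Nqo1 (0.61) were higher, and Gclm (-0.98), Hmox1 (-0.91) and Osgin1 (-1.77) were lower. All of these but Gstm2 are commonly cited NRF2 targets, as are Srxn1 and Txnrd1, which were not called, so such targets differed in both directions. Of 35 cytochromes P450, 11 were higher and 9 lower (median 0.0925), and the summed FPKM, which Cyp2e1 and Cyp4b1 make up in large part, was 3889.8 to 4673 in Ctrl and 1471 to 3451 in Dapa. Of 25 amino acid and peptide transporters, 7 were lower and 3 higher (median -0.0965).

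None of 11 tested genes of the renin-angiotensin system was higher and 5 were lower (median -0.35). Ace, the angiotensin-converting enzyme, on chr11:105967945-105989964 of mm10, had an FPKM of 19.6, 16, 19.9, 10.6 and 19.4 in Ctrl and 2.22 to 8.08 (median 3.83) in Dapa, with no overlap (log2 fold change -1.95 ± 0.32, q = 0.00118). The brush border peptidases Anpep (-0.57) and Enpep (-0.45) and the receptor gene Agtr1a (-0.39) were lower too. Without Dapa 9, 10 and 12, 1 of the 11 was lower.

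Of 21 immediate early genes, which are transcribed within minutes of a stimulus, 12 were higher, none lower and 9 not called (median 0.587; 7 higher without Dapa 9, 10 and 12). Fos had an FPKM of 0.292, 0.643, 0.487, 0.374 and 0.117 in Ctrl and 1.98 to 7.99 (median 2.69) in Dapa (log2 fold change 3.05 ± 0.46, q = 0.000727). Egr1 had an FPKM of 0.344, 0.892, 0.293, 0.519 and 0.464 in Ctrl and 1.47 to 5.48 (median 2.47) in Dapa (log2 fold change 2.35 ± 0.35, q = 0.000689). Nr4a1, an orphan nuclear receptor, had an FPKM of 1.79, 1.6, 1.18, 1.48 and 1.82 in Ctrl and 2.91 to 12.7 (median 6.18) in Dapa (log2 fold change 1.94 ± 0.31, q = 0.00107). No treated mouse overlapped a wild-type mouse for these 3 genes, and Dapa 12 was highest for each. Junb was higher as well (log2 fold change 1.26 ± 0.17, q = 0.00054). Of 20 clock genes, 5 were higher and 2 lower (median 0.15). The repressor Cry1 had an FPKM of 0.777, 1.15, 1.52, 1.88 and 1.6 in Ctrl and 3.01 to 6.91 (median 5.44) in Dapa (log2 fold change 1.75 ± 0.26, q = 0.000773). The activator Arntl (log2 fold change 0.97 ± 0.3, q = 0.0277) was higher and the repressor Nr1d1 (log2 fold change -0.57 ± 0.11, q = 0.00316) lower, both with overlap, and the Arntl call was lost without Ctrl 1, Ctrl 2, Ctrl 3 or Dapa 11.

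Of 32 heat shock and unfolded protein genes, 11 were lower, none higher and 21 not called (median -0.29; 7 lower without Dapa 9, 10 and 12). Hspa8, the constitutive HSC70 chaperone, had an FPKM of 113, 159, 133, 121 and 169.7 in Ctrl and 51.2 to 104 (median 59.8) in Dapa (log2 fold change -1.13 ± 0.19, q = 0.00132), with 38.6% of its stretches shared with other transcripts. Hsph1, a nucleotide exchange factor of HSP70, had an FPKM of 8.01, 16, 14.5, 11.7 and 17.4 in Ctrl and 3.23 to 10 (median 4.9) in Dapa, with overlap (log2 fold change -1.3 ± 0.3, q = 0.00699). It did not pass within the libraries with unmatched FPKM (log2 fold change -0.64, q = 0.151) and passed within the others (-2.19, q = 0.0126). Hspd1, the mitochondrial HSP60 (log2 fold change -0.75 ± 0.13, q = 0.00143), and Dnajb1, the HSP40 co-chaperone (log2 fold change -0.75 ± 0.12, q = 0.000935), did not overlap between groups, and 39.7% of the stretches of Hspd1 are shared with other transcripts. The cold-inducible RNA-binding protein gene Cirbp had an FPKM of 8.64, 11, 10.9, 8.58 and 8.17 in Ctrl and 22.9 to 33.6 (median 27.9) in Dapa, with no overlap (log2 fold change 1.46 ± 0.14, q = 9.64e-05). Rbm3, also induced by cold, differed less (log2 fold change 0.24 ± 0.084, q = 0.0492), and its call was lost without any of Ctrl 1 to Ctrl 5 or Dapa 7, 8, 9 or 11 (q up to 0.103).

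Interferon-stimulated genes were counted in separate lists. Of 53 type I genes, 13 were higher and 3 lower (median 0.223; 7 and 3 without Dapa 9, 10 and 12). Ifit1, which binds foreign RNA caps, had an FPKM of 1.09, 1.22, 1.26, 1.34 and 1.29 in Ctrl and 1.67 to 4.99 (median 3.73) in Dapa, with no overlap (log2 fold change 1.32 ± 0.26, q = 0.00301). Ifit3 had an FPKM of 5.33, 7.02, 3.21, 5.97 and 4.73 in Ctrl and 6.99 to 23 (median 12.7) in Dapa, with overlap (log2 fold change 1.21 ± 0.28, q = 0.00737), and shares 51.2% of its stretches with other transcripts, mainly its near copy Ifit3b. Isg15, the ubiquitin-like modifier, had an FPKM of 2.28, 1.85, 0.867, 1.64 and 2.85 in Ctrl and 2.4 to 5.58 (median 2.8) in Dapa and did not pass (log2 fold change 0.64 ± 0.33, q = 0.157). Of 32 interferon-gamma response genes, 1 was higher and 3 lower (median 0.0024), a smaller share than over all genes. Without Dapa 9, 10 and 12 these counts were 1 and 0, and within the 6 libraries with unmatched FPKM 1 and 5 (median -0.399). The chemokine gene Cxcl10 was the higher one, with an FPKM of 0.491, 0.55, 0.513, 0.559 and 0.613 in Ctrl and 0.931 to 3.13 (median 2.51) in Dapa (log2 fold change 1.94 ± 0.28, q = 0.000583). The GTPase Tgtp1 was lower (log2 fold change -2.04 ± 0.41, q = 0.00334), with 81.2% of its stretches shared with other transcripts. It did not pass without Dapa 9, 10 and 12 (-1.6, q = 0.0568). Within the libraries with unmatched FPKM it passed (-2.76, q = 0.00394), and within the others it did not (-1.15, q = 0.356). Gbp2 (log2 fold change 0.01 ± 0.31, q = 0.978) and the immunoproteasome subunit Psmb8 (log2 fold change 0.19 ± 0.23, q = 0.563) did not pass. The same held for the checkpoint receptor Btla (log2 fold change 0.08 ± 0.38, q = 0.888), which was at an FPKM of 0.255 or less in every mouse. The cytokine receptor Csf2rb did not pass either (log2 fold change 0.97 ± 0.5, q = 0.166), but it did within the 6 libraries with unmatched FPKM (log2 fold change 1.99, q = 0.0429), against 0.08 (q = 0.963) within the other 5. Of 27 MHC class I and peptide loading genes 5 were higher and none lower (median 0.109; 1 higher without Dapa 9, 10 and 12), and of 10 MHC class II genes 1 was higher (median 0.313). Within the 6 libraries with unmatched FPKM the direction turned, with 3 higher and 5 lower class I genes (median -0.156) and 3 lower class II genes (median -0.382).

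Promoter sequences were read for the interferon, heat shock and immediate early lists, because the factors that act on each have known elements. The windows were the RefSeq promoter sequences of GRCm38.p6, from 250 bases before to 50 bases after the start of the gene, and both strands were searched. The interferon element, a pair of GAAA motifs with any 2 bases between them (TTTC where read on the opposite strand), occurred in 8 of the 13 higher type I genes, in 11 of 26 other tested members with a sequence, and in 3.99% of all 27025 genes with a promoter. The heat shock element TTCNNGAA, which reads the same on both strands, occurred in 3 of the 6 lower chaperone genes with a sequence, in none of 21 other members and in 9.6% of all genes. The core of the cyclic AMP element, TGACG or its reverse complement, occurred in 8 of the 10 higher immediate early genes with a sequence, in 3 of 8 others and in 23% of all genes. A match is a description of the letters in these windows. The 170 bases before the start are shown for 4 of these genes in the direction of transcription, with the matches in capitals. They are chr19:34640719-34640888 on the plus strand for Ifit1, chr19:34583359-34583528 on the plus strand for Ifit3, chr5:149636337-149636506 on the minus strand for Hsph1 and chr12:85473720-85473889 on the plus strand for Fos.
Ifit1: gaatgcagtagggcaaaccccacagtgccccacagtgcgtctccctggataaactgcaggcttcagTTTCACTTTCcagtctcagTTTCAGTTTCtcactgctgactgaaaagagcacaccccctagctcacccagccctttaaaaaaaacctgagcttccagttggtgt
Ifit3: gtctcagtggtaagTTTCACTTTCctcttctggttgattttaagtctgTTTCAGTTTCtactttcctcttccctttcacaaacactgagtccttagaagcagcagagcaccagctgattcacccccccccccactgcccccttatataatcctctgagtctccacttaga
Hsph1: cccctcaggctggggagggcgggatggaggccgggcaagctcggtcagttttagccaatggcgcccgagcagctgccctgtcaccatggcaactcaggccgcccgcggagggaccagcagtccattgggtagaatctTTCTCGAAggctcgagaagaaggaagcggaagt
Fos: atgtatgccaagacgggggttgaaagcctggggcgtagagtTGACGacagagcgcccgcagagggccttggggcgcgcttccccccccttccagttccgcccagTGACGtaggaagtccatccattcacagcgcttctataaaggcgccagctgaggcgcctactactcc

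Both Ifit promoters hold 2 interferon elements, the Hsph1 promoter holds 1 heat shock element close to the RefSeq start, and the Fos promoter holds 2 cyclic AMP cores. The Hsph1 element begins at -33 from the start of the window shown and at -54 from that of a second RefSeq window. The deposited span of Hsph1 reaches up to 149636376, so by that span the element lies inside the gene. Whether a factor bound any of these elements was not measured here.

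Of 33 tubular injury and repair genes, 15 were higher, 2 lower and 16 not called (median 0.736; 12 and 0 without Dapa 9, 10 and 12). Their summed FPKM was 440 to 688 in Ctrl and 723 to 1246 in Dapa. Spp1, the secreted matrix protein osteopontin, had an FPKM of 101, 113, 92.5, 131 and 76.7 in Ctrl and 231 to 613 (median 275) in Dapa (log2 fold change 1.55 ± 0.24, q = 0.000935). Lcn2, the iron-siderophore-binding injury marker NGAL, had an FPKM of 0.367, 0.1, 0.159, 0.182 and 0.0521 in Ctrl and 0.511 to 8.07 (median 1.14) in Dapa (log2 fold change 3.56 ± 0.79, q = 0.00584). Neither gene overlapped between groups, and Dapa 8 was highest for both. Krt18 (1.36), Clu (1.3), Cdkn1a (1.28), Lgals3 (1.01) and Vim (0.64) were higher too. Of 22 acute phase genes, 9 were higher, none lower and 13 not called (median 0.612). The metallothionein gene Mt1, also on the list of glucocorticoid-responsive genes, had an FPKM of 64.3, 65.6, 70.8, 108 and 55.1 in Ctrl and 139.8 to 392 (median 262) in Dapa (log2 fold change 1.75 ± 0.24, q = 0.00054). Of 20 glucocorticoid-responsive genes 6 were higher and 1 lower (median 0.486), with Fkbp5 (0.73) and Per1 (0.87) higher and the cortisone reductase Hsd11b1 (-1.15) lower. Of 31 complement genes 3 were higher and 3 lower (median 0.214). C3, the central component, had an FPKM of 5.39, 6.4, 10.1, 6.29 and 4.9 in Ctrl and 15.7 to 53.8 (median 25.4) in Dapa, with no overlap (log2 fold change 2.03 ± 0.31, q = 0.000858). Of 44 collagen and matrix genes, 16 were higher, 2 lower and 26 not called (median 0.374; 9 and 2 without Dapa 9, 10 and 12). The 16 were led by Tnc (log2 fold change 2.01 ± 0.53, q = 0.0144), with Lox (1.11), which crosslinks collagen, Fbn1 (0.93) and Mmp2 (0.63) also higher. Of 26 coagulation and fibrinolysis genes 4 were higher and 4 lower (median 0.327), and of 25 chemokines and cytokines 4 were higher and 4 lower (median 0.0815). In both lists these shares were near those over all genes. Cxcl13, the B cell chemokine, was at an FPKM of 0.375, 0.053, 0.207, 0.0515 and 0.276 in Ctrl and 0.335 to 3.4 (median 1.74) in Dapa (log2 fold change 3.05 ± 0.68, q = 0.00584). Of 31 proliferation genes 6 were higher and 5 lower (median -0.151), shares near those over all genes. The lower ones were Cenpf (-1.69), Ccnb2 (-1.56), Kif20a (-1.3), Top2a (-0.96) and Mki67 (-0.76), and the higher ones included the mitotic kinesin gene Kif23 (1.42) and Mcm5 (1.03). Within the libraries with unmatched FPKM the list held 4 higher and 0 lower.

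**Figure D5:**
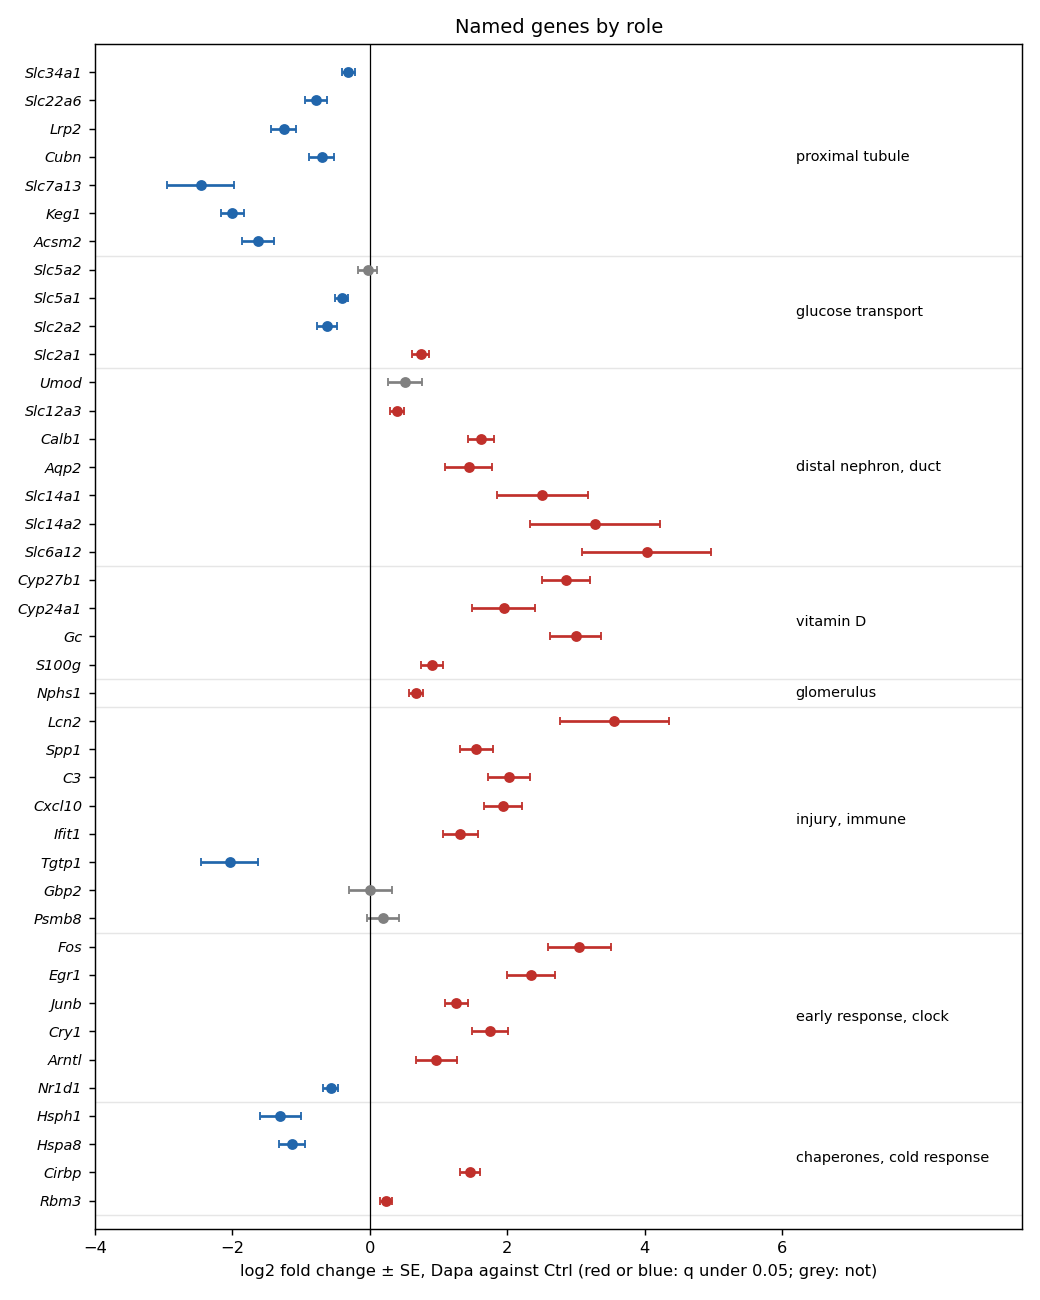
Log2 fold change of Dapa against Ctrl with its approximate SE (bars) for 41 named genes grouped by role. Red and blue points passed a q under 0.05 and grey points did not. Proximal tubule genes lie to the left of 0 and distal nephron and vitamin D genes to the right, while Slc5a2, Gbp2 and Psmb8 lie at or near 0.

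Markers of other cell types and nephron segments were counted in the same way. Of 8 erythroid genes 6 were higher and none lower (median 2.1), with a summed FPKM of 23.3 to 76.8 in Ctrl and 119 to 373 in Dapa. Hba-a1, an alpha globin, had an FPKM of 8.93, 12.1, 3.6, 12.7 and 8.78 in Ctrl and 25.4 to 78.8 (median 51.1) in Dapa, with no overlap (log2 fold change 2.34 ± 0.33, q = 0.000557), although 72.3% of its stretches are shared with its near copies. Alas2, the haem synthesis enzyme of red cells, none of whose stretches is shared, had an FPKM of 1, 1.37, 0.317, 0.777 and 0.814 in Ctrl and 2.83 to 9.48 (median 5.53) in Dapa (log2 fold change 2.64 ± 0.39, q = 0.000689). Of 12 podocyte markers 5 were higher and none lower (median 0.146). Nphs1, the slit diaphragm protein nephrin, was higher (log2 fold change 0.67 ± 0.1, q = 0.00091). Of 12 smooth muscle and mesangial markers 5 were higher (median 0.637), of 13 endothelial markers 2 (median 0.437; 6 with a median of 0.695 within the libraries with unmatched FPKM, and none with a median of -0.0145 within the others), of 12 markers of the loop of Henle and distal tubule 4 (median 0.342), of 10 macrophage markers 1 (median 0.00721), of 8 liver markers 1 (median 0.0546) and of 4 T and NK cell markers 2 (median 0.868). None of these was lower. No marker passed among 6 of B and plasma cells (median 0.46), but within the libraries with unmatched FPKM 2 of them were lower (median -0.774). None passed among 2 of neutrophils, 4 of adipocytes and 1 of the pancreas. Hsd3b1, a steroid dehydrogenase on the adrenal list, had an FPKM of 0.163, 0.242, 0.0985, 0.0783 and 0.336 in Ctrl and 0.0222 to 7.1 (median 4.99) in Dapa (log2 fold change 4.42 ± 0.82, q = 0.00238), with the lowest value in Dapa 7. The defining adrenal genes Cyp11a1 and Cyp21a1 were at an FPKM of at most 0.0503 and 0.0749 in any of these mice.

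The untreated db/db mice, compared with the same Ctrl mice in a separate fit of the same kind, are given beside some of these genes because the wild-type mice are shared. For Kap the log2 fold change against Ctrl was -2.95 in Case and -2.53 in Dapa. For Spp1 it was 2.52 in Case and 1.55 in Dapa, and for C3 3.32 and 2.03. Cyp27b1 was 1.63 (q = 0.0552) in Case and 2.86 in Dapa. Gbp2 was 4.38 (q = 0.0245) in Case and 0.01 in Dapa, and Psmb8 3.10 (q = 0.0205) and 0.19. None of these 6 genes passed in the direct comparison of Dapa with Case, where Gbp2 and Psmb8 each had a q of 0.179.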

How the data were processed

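Whole-kidney RNA was measured in 1 library per mouse, so replicates are separate mice. The libraries were strand-specific. According to the study's methods, HISAT2 placed the reads on mm10 and Stringtie gave the read count of each gene, and the authors deposited these counts unnormalized. The deposited FPKM values were made by the authors from count, library total and gene length, which they follow to within 0.00792% in these libraries for counts of at least 10, so they hold no TMM factor. The methods name TMM before FPKM. Of 22561 genes, 3 with broken entries were left out.

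Groups were those of the labels. Counts of the 11 mice were tested with edgeR 4.0.16 under R 4.3.3 (filterByExpr, TMM scaling, quasi-likelihood test), and q is the p adjusted over all genes tested. Log2 fold changes are Dapa over Ctrl, ± SE. This SE is approximate, the absolute log2 fold change divided by the square root of the F value of the test. A fold above 2 was taken between means of FPKM. Shares of counts were compared by exact two-sided permutation tests over mice (Python 3.11.15, scipy 1.17.1, numpy 2.4.6, pandas 2.3.3), and figures were drawn with matplotlib 3.10.9. The SE and SD include the spread between mice, while the floor of 3 counts covers counting error only.

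The comparison, the lists and the genes were chosen with earlier results of these data known. The rule for named genes took Lepr and Slc5a2, the 10 highest and 10 lowest log2 fold changes among DEGs that did not overlap and had a mean FPKM of 1 or more in the higher group, the 10 most abundant DEGs, up to 4 called genes of each of 47 lists with the largest change, and Isg15, Csf2rb and Btla. Not every gene that meets it is printed, and some are not reported here. Slc34a1, Cubn, Slc22a6, Umod, Bdh1, Slc5a1, Junb, Nr1d1, Ifit3, Gbp2, Psmb8, Cirbp, Rbm3, Cyp11a1, Cyp21a1, H2-Ea-ps and the called list members beyond those 4 were chosen after their values were seen. Shared stretches are the 50-base stretches of a gene's transcripts found again in the transcripts of a different gene.

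The alternatives were DESeq2 1.42.0, the exact test of edgeR, median ratio and upper quartile scaling, a minimum of 10 counts in each library, no filter, all 3 groups in one fit, limma 3.58.1 on log2(FPKM + 1) and log2(FPKM + 0.1), voom with sample weights, a term for the libraries with unmatched FPKM, no mitochondrial genes, and each mouse left out in turn. Fits within the libraries with unmatched and with matched FPKM, and without Dapa 9, 10 and 12, were chosen after seeing the data. The test was tested on simulated data for Dapa against Ctrl. There it recovered 95.81% of 191 genes changed 4-fold and tested, with 15 false calls among 14661 genes. Recovery at smaller folds was not tested. Of the 4260 genes called in the real data, 3209 had a fold under 2 between means of FPKM.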

Additional observations from a re-analysis of the deposited data

Results flagged for a closer look

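In 190 groups of values examined (1 gene or library property in the 5 Ctrl or the 6 Dapa mice), 21 had a highest or lowest mouse whose gap to the nearest other mouse, divided by the range of the group, was above Dixon's 95% critical value. That is 11.1%. The rate of 1 in 20 set by that critical value holds for normally distributed values and counts independent groups. FPKM values of related genes need not meet this, so the share was not compared with chance. All values below are FPKM.

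Dapa 8 stood above the other treated mice for Ugt1a2 (391), Spp1, the osteopontin gene (613), Lcn2, the NGAL gene (8.07), H2-Ea-ps (90.0) and Gm37314 (3.38). Dapa 12 stood above them for the immediate early genes Fos (7.99), Fosb (2.66), Egr1 (5.48) and Nr4a1 (12.7) and for Isg15 (5.58). Dapa 7 stood above them for the anion carrier Slco1a1 (13.1), the acetoacetate enzyme Aacs (12.2) and the GTPase Tgtp1 (0.812). Dapa 9 was highest for calbindin-D9k, S100g (927), and Dapa 11 lowest for the thiazide-sensitive carrier Slc12a3 (199).

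Among the wild-type mice, Ctrl 2 was highest for both apical glucose carriers, Slc5a2 (72.8) and Slc5a1 (21.9), and lowest for Ugt1a2 (0.744). Ctrl 3 was highest for C3 (10.1) and Ctrl 4 lowest for Inmt (271). Fosb was marked in Ctrl 5 (0.22).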

How the results depend on the processing

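Of the 4260 called genes none took the opposite sign in any setting that tested it. Among named genes that did not pass, Slc5a2, Btla, Gbp2, Psmb8 and H2-Ea-ps took the opposite sign in at least 1 setting (Gbp2 down to -0.61), and so did the medians of 19 of 47 lists. With 1 mouse left out, the number of genes that differed ranged from 3227 to 4690, those higher from 1524 to 2342, those lower from 1605 to 2348, DEGs from 839 to 1234, higher DEGs from 572 to 908 and lower DEGs from 267 to 375. With at least 10 counts in every library 204 DEGs were lower, since fewer genes were tested. Within the 5 libraries with matched FPKM, 273 genes differed (95 higher, 178 lower) and 172 were DEGs (72 higher, 100 lower), and without Dapa 9, 10 and 12, 1857 genes differed (919 and 938) and 613 were DEGs (413 and 200); both fits hold fewer mice. The difference in the mitochondrial share of counts ranged from 3.32 to 4.9 percentage points and that of the 10 most abundant genes from 2.82 to 4.23 with 1 mouse left out. Within the libraries with unmatched FPKM they were 5.49 and 4.5 (p = 0.1, the smallest an exact permutation test allows there). Within those with matched FPKM they were 3.06 and 2.76 (p = 0.2, again the smallest the exact permutation test allows there). Of the named genes, Slc34a1, Slc14a2, Arntl, Nr1d1, Tgtp1, Rbm3 and Hsd3b1 lost their call in at least 1 fit planned from the start other than those that leave a mouse out, and Lepr gained one in the exact test of edgeR (1.29), without Ctrl 4 (1.64) and without Dapa 9 (1.52), as Umod did without Ctrl 4 (0.76). Within the 6 libraries with unmatched FPKM Lepr (1.83) and Csf2rb (1.99) gained a call and 5 of 84 called genes followed lost theirs (Slc12a3, Arntl, Hsph1 and Rbm3 among them), and within the other 5 libraries 58 of the 84 did. Without Dapa 9, 10 and 12, Slc34a1, Cubn, Slc12a3, Cyp24a1, Slc5a1, Aldoc and Tgtp1 lost theirs. The cause of these changes was not tested. In the same fit the list counts became 5 higher and 8 lower for cytochromes P450, 7 and 3 for glutathione and NRF2 targets, 4 and 0 for glycolysis, gluconeogenesis and fructose metabolism, 2 and 2 for glucose transporters, 4 and 3 for amino acid and peptide transporters, 6 and 7 for fatty acid and cholesterol synthesis, 6 and 0 for acute phase genes, 6 and 4 for UDP-glucuronosyltransferases, 5 and 1 for the hypoxia response, 4 and 3 for proliferation, 4 and 1 for complement, 0 and 0 for respiratory chain subunits, 2 and 0 for MHC class II, 1 and 0 for the endothelium, for T and NK cells and for B and plasma cells, 0 and 0 for macrophages, 2 and 2 for chemokines and cytokines, 0 and 2 for leptin, insulin and IGF signalling, 2 and 0 for smooth muscle and mesangium, and 1 and 0 for the loop of Henle and distal tubule. Within the 6 libraries with unmatched FPKM they became 0 and 17 for androgen-responsive genes, 3 and 22 for organic anion and cation transporters, 2 and 11 for amino acid and peptide transporters, 8 and 5 for glutathione and NRF2 targets, 5 and 10 for fatty acid and cholesterol synthesis, 5 and 1 for acute phase genes, 8 and 1 for type I interferon, 1 and 7 for heat shock, 4 and 0 for proliferation, 4 and 2 for chemokines and cytokines, 1 and 2 for respiratory chain subunits, 3 and 0 for podocytes, 1 and 0 for the loop of Henle and distal tubule and for T and NK cells, and 0 and 0 for macrophages and liver.

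No paired analysis was possible because the Ctrl mice are numbered 1 to 5 and the Dapa mice 7 to 12, so the groups share no replicate number. Depth limits genes with few counts, such as Btla and Csf2rb, and the counts cannot separate strain, genotype, diabetes and drug.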

Other observations

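Some of the DEGs with the highest log2 fold changes belonged to none of the lists. Muc20, a mucin of the kidney epithelium, had an FPKM of 0.26, 0.56, 0.503, 0.896 and 0.678 in Ctrl and 1.16 to 12.7 (median 3.74) in Dapa (log2 fold change 3.24 ± 0.66, q = 0.00375), and its highest treated values were in Dapa 11 and Dapa 12. BC021614, a gene model, had an FPKM of 0, 0, 0.121, 0.3 and 0 in Ctrl and 0.931 to 1.89 (median 1.43) in Dapa (log2 fold change 3.81 ± 0.64, q = 0.00138). Dnajb3, a co-chaperone gene that lies within the spans of Ugt1a2 and Ugt1a5, so that its counts may not be separate from theirs, had an FPKM of 0.117, 0.116, 0.34, 0.113 and 0 in Ctrl and 0.896 to 2.14 (median 1.34) in Dapa (log2 fold change 3.23 ± 0.52, q = 0.0011). The groups did not overlap for these 3 genes, and their Ctrl values rest on few counts, which for BC021614 were 0 to 5 per library.

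Over the autosomes and X, the share of genes called ranged from 24.9% of the genes tested on chromosome 5 to 33.9% on chromosome 13.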
